A study of Mus musculus with 71 samples.

Results

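CREB, the cAMP response element-binding protein, was followed with its close relatives and its coactivators through cocaine abstinence in the nucleus accumbens (NAc), ventral tegmental area (VTA) and prefrontal cortex (PFC). The 8 genes are Creb1, Crem, Atf1, Crtc1, Crtc2, Crtc3, Crebbp and Ep300, out of 37681 genes in each of the 6 RNA-seq tables. They were chosen by name, with their cocaine against saline values in these tables already known, so that contrast is given for them as a description. All 8 passed the filter on low values in all 6 tables.

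The libraries came from adult wild type C57BL/6 mice (C57BL/6J in the study's methods) that had learned to work for food, received a jugular catheter, and then self-administered cocaine or saline. Tissue was punched after 1 or 28 days of abstinence, which gave 12 groups of 6 libraries, except for 5 in the saline VTA group at 28 days, and 71 libraries in all. Both sexes were used in the study, but no label gives the sex of a library. Whether libraries of different regions came from the same mouse is not given either, so p-values measure the spread between these libraries.

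CREB1, CREM and ATF1 are basic leucine zipper factors that bind the cAMP response element (CRE) as dimers, and are switched on by phosphorylation when cAMP or calcium rises. CRTC1, CRTC2 and CRTC3 are held in the cytoplasm while phosphorylated by salt-inducible kinases; calcineurin frees them to enter the nucleus and bind CREB. CBP (Crebbp) and p300 (Ep300) are lysine acetyltransferases that bind phosphorylated CREB and acetylate histones. In the striatum, CREB activity is known to rise with repeated psychostimulant exposure. Much of this control acts on the proteins, which RNA-seq does not measure.

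The element that gives the family its name is TGACGTCA, which reads the same on both strands. The following stretches show it in capitals in promoters of genes known as CREB targets. They were taken from RefSeq promoter windows on GRCm38.p6 that run from 250 bases before to 50 after the transcript start, and are written 5′ to 3′ on the gene's strand. These 6 are all the genes of a list of 28 CREB targets whose windows held the full element.
Sst (chr16:23890875-23890902, minus strand): cctccttggcTGACGTCAgagagagagt
Scg2 (chr1:79440077-79440104, minus strand): gctgagccggTGACGTCAgcgtggaatg
Pcsk1 (chr13:75089769-75089796, plus strand): caggtagatcTGACGTCAagagatggct
Cartpt (chr13:99900778-99900805, minus strand): cggcgggcatTGACGTCAaacggcagcg
Dusp1 (chr17:26508598-26508625, minus strand): gtagggcgggTGACGTCAccgcccggtc
Btg2 (chr1:134079304-134079331, minus strand): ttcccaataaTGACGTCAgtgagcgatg

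The element began 48 bases before the start in Sst, the somatostatin gene, 68 in Scg2, 78 in Pcsk1, 112 in Cartpt, 143 in Dusp1 and 166 in Btg2. Windows were found for 19 of the 28 target genes, and 19.4% of their 31 windows held the full element, against 1.79% of all 32851 windows. The 5-base core (TGACG, or CGTCA on the other strand, which the full element contains on both strands) was in 64.5% of the target windows and 20.8% of all. The targets were listed because they are known to have such elements, so this share follows from the choice.

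Of the 8 genes themselves, 6 had a window (all but Crem and Crtc2). None of the 6 held the full element, and only Atf1 held the core, 90 bases before its start, shown here in capitals.
Atf1 (chr15:100227759-100227783, plus strand): gaccacgcggTGACGcagcacgccg

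The gene whose level differed most between regions was Crtc1, and its window is printed with each CpG in capitals (chr8:70439524-70439823, minus strand, GRCm38.p6). It held 40 CpG and was 71.7% G and C, against medians of 7 and 52.7% over all windows. Crtc1 did not stand apart in this, as the other 5 windows held 30 to 49 CpG and were 69.0% to 82.0% G and C. Like the other 5, the Crtc1 window held no full CRE.
Crtc1: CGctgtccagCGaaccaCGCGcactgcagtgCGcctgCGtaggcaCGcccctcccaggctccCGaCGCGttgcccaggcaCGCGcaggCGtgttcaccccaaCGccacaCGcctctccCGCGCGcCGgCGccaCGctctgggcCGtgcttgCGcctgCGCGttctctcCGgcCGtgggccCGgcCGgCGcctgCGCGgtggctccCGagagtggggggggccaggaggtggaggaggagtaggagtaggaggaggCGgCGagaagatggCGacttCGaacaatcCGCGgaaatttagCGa

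In mm9, the build of the tables, Creb1 (ENSMUSG00000025958) lies at chr1:64579378-64651121, Atf1 (ENSMUSG00000023027) at chr15:100058250-100091675, Crtc1 (ENSMUSG00000003575) at chr8:72906254-72963478, Crtc2 (ENSMUSG00000027936) at chr3:90058085-90068047, Crtc3 (ENSMUSG00000030527) at chr7:87731513-87833763, Crebbp (ENSMUSG00000022521) at chr16:4084048-4213404 and Ep300 (ENSMUSG00000055024) at chr15:81415781-81482507. All are protein coding, as is Crem (ENSMUSG00000063889) on chromosome 18. Crem and Crtc3 each overlap 1 noncoding gene on the opposite strand, Crtc2 overlaps 1 predicted coding gene (Gm10973) on its own strand, and Ep300 holds 2 small RNA genes. The strand used in counting is not given in the sources used here, so reads of those overlaps could not be told apart.

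Depth was 20971967 to 49700932 reads in genes per library, and each of the 8 genes had between 142 and 17746 reads in every library, so counting error differs between genes and is largest for the low ones, Crem and Atf1 among them. Levels are given as RPKM, reads scaled by transcript length and library size, which can be compared between genes. Library size was adjusted by TMM normalization factors in the 4 tables of counts. The VTA and PFC values of 1 day are the deposited RPKM, without these factors. The factors computed for the 71 libraries ran from 0.959 to 1.05. Tissue labels were checked on marker genes. Summed markers of striatal medium spiny neurons reached 1664 to 3760 RPKM in NAc libraries, those of midbrain dopamine neurons 423 to 2067 in the VTA, and those of cortical excitatory neurons 487 to 807 in the PFC. Regions were mixed to some degree in other libraries too: cortical markers ran from 3.55 to 294 RPKM over the NAc libraries, with the highest value in cocaine replicate 6 of 1 day. The part of such mixing in the values below was not tested beyond the fits named there. 2 libraries stood apart further. A saline PFC library at 28 days (library 4) had 1338 RPKM of striatal markers, against 91.8 to 125 in the other 5. A saline VTA library at 28 days (library 1) was low in long transcripts: genes over 7000 bases were 0.72 lower than genes under 2000 bases on the log2 scale, relative to the group median, against −0.21 to 0.15 in the other 70 libraries. Calls of the 8 genes that changed without these libraries are given both ways, as are some of their fold changes and correlations.

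Crtc1 had the highest level of the 8 genes in saline NAc and PFC, and Ep300 in the VTA. At 28 days the NAc of saline mice held 36.9 ± 1.5 RPKM of Crtc1 (SD, n = 6), ahead of Ep300 at 10.8 ± 0.32, Crtc2 at 9.90 ± 0.66 and Crebbp at 7.62 ± 0.27. Creb1 (4.98 ± 0.48), Crtc3 (4.83 ± 0.63) and Atf1 (4.37 ± 0.47) came next, with overlapping ranges and no test between genes. Crem was lowest at 2.76 ± 0.38. In the PFC the order was Crtc1 at 27.9 ± 3.6, Ep300 at 9.74 ± 0.88, Crtc2 at 8.29 ± 0.50, Crebbp at 6.84 ± 0.72 and Creb1 at 5.11 ± 0.67, with Crtc3 (3.93 ± 0.31), Atf1 (3.81 ± 0.20) and Crem (3.75 ± 0.44) within their spread of each other. In the VTA, Ep300 (9.57 ± 2.2, n = 5), Crtc2 (9.37 ± 0.91) and Crtc1 (8.88 ± 0.53) lay together at the top, and Crem was again lowest at 2.81 ± 0.43. The plot of levels shows every library.

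**Figure D1:**
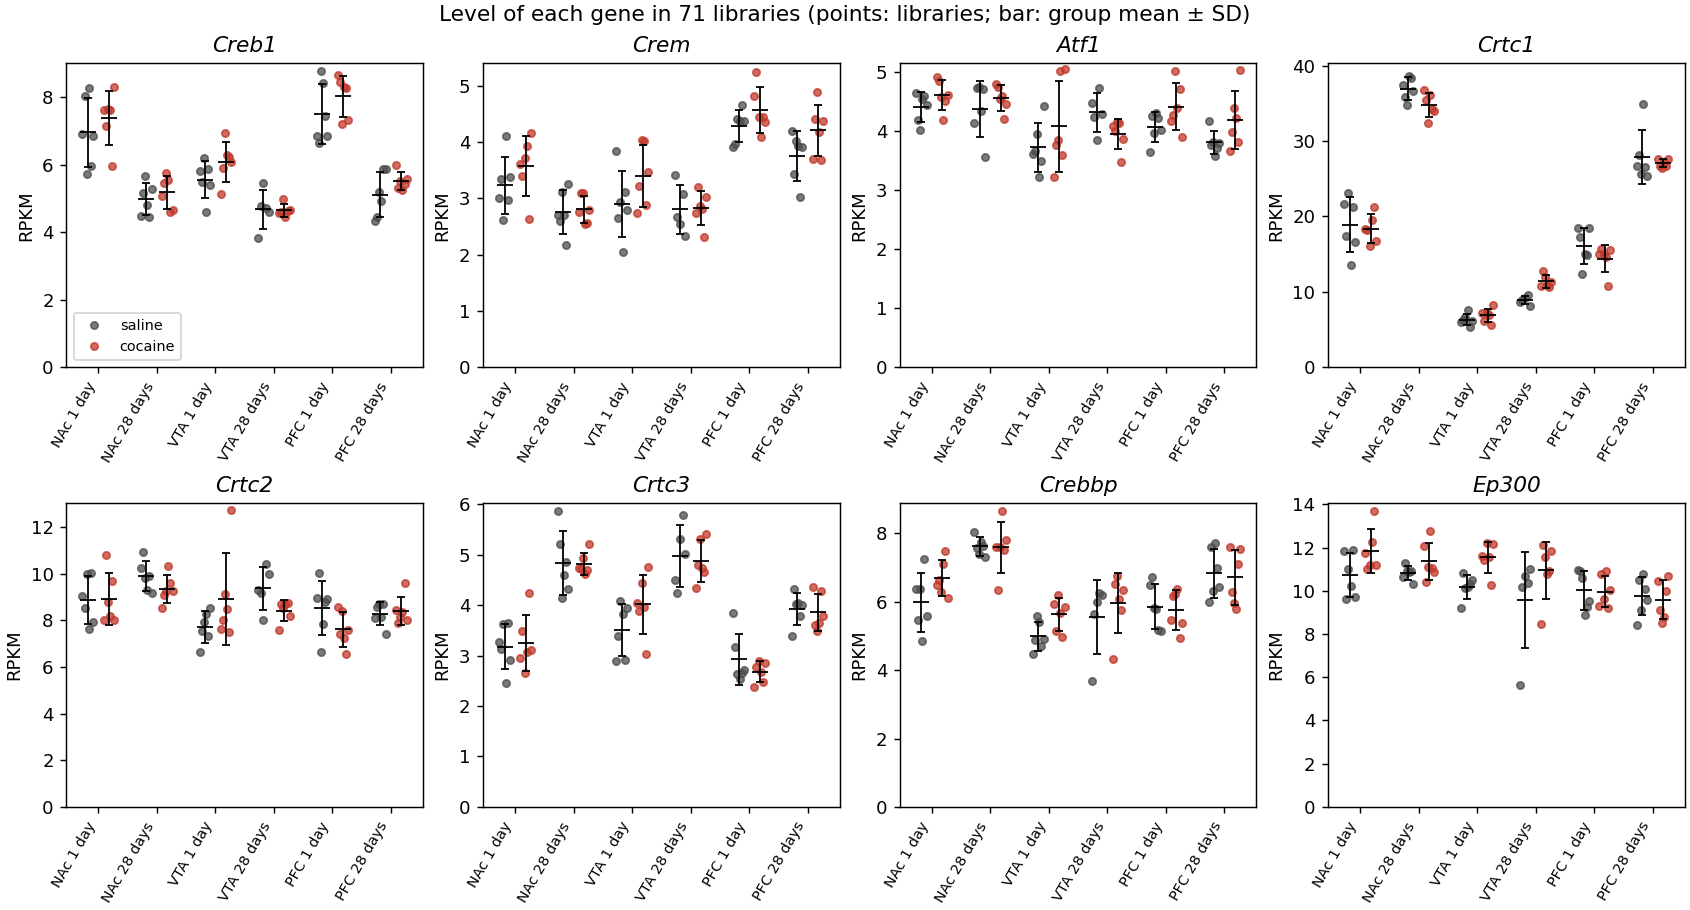
Level of each gene in RPKM (vertical axis, from 0) in the 12 groups (horizontal axis), with 1 point per library, saline grey and cocaine red, and the group mean ± SD as a bar. Crtc1 spans the widest range, from 5.34 RPKM in a saline VTA library at 1 day to 38.7 in a saline NAc library at 28 days, while Atf1 stays between 3.22 and 5.06.

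To ask whether the CREB machinery differs between the 3 regions without drug, saline libraries at 28 days were compared in 1 edgeR quasi-likelihood fit, a contrast the choice of genes did not use. Crtc1 was the gene that separated the regions most. Its saline libraries read 37.5, 35.8, 34.7, 38.7, 38.3 and 36.6 RPKM in the NAc. VTA libraries read 8.65, 8.98, 9.14, 9.53 and 8.11, and PFC libraries 26.7, 28.2, 25.7, 34.9, 26.5 and 25.4. The VTA did not overlap either other region, and the 34.9 of the PFC was library 4, which carried striatal markers. Crtc1 was 4.48-fold lower in VTA than NAc (log2 difference −2.16 ± 0.08 SE, adjusted p = 6.43e-13) and 3.50-fold higher in PFC than VTA (1.81 ± 0.08, adjusted p = 3.61e-12). PFC was 1.28-fold below NAc (−0.36 ± 0.07, adjusted p = 0.000618). Without PFC library 4 that difference was −0.45 and the PFC to VTA difference 1.74. In bulk tissue, fewer cells of a type and less RNA per cell cannot be told apart, and region and table cannot be told apart either, since each region was deposited as its own table.

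Among the DNA-binding factors, Crem was higher in the PFC. Crem encodes CREM activators and, from an internal promoter, the early repressor ICER, which the gene's count does not separate. Its saline PFC libraries at 28 days read 4.19, 3.43, 4.01, 3.93, 3.02 and 3.92 RPKM, against 2.70, 2.60, 3.12, 2.71, 2.18 and 3.25 in the NAc. The groups overlapped in 1 PFC library (3.02). Crem was 1.40-fold higher in PFC than NAc (0.49 ± 0.11, adjusted p = 0.00202) and 1.49-fold higher than in VTA (0.57 ± 0.12, adjusted p = 0.000485). Without PFC library 4 these were 0.46 (adjusted p = 0.00620) and 0.57 (adjusted p = 0.00121). Creb1, the founding factor, was 1.22-fold higher in PFC than VTA (0.28 ± 0.10, adjusted p = 0.0250), a call lost on leaving out VTA library 1 (0.21, adjusted p = 0.0639), VTA library 5 (0.27, adjusted p = 0.0524) or PFC library 6 (0.24, adjusted p = 0.0611). Its other region differences, and all 3 of Atf1, did not pass. The 95% intervals for Atf1 were −0.31 to 0.05 for VTA over NAc, −0.33 to 0.02 for PFC over NAc and −0.21 to 0.16 for PFC over VTA.

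The acetyltransferase gene Crebbp was lower in the VTA, by 1.47-fold against NAc (−0.56 ± 0.11, adjusted p = 0.000338) and by 1.37-fold against PFC (PFC over VTA 0.45 ± 0.11, adjusted p = 0.00234). Saline libraries at 28 days read 8.05, 7.57, 7.40, 7.74, 7.63 and 7.30 RPKM in the NAc and 3.69, 5.64, 6.00, 6.26 and 6.21 in the VTA, with no overlap. The 3.69 was library 1, the library low in long transcripts. Without it the differences were −0.44 (adjusted p = 3.24e-05) and 0.33 (adjusted p = 0.000528). The paralog Ep300 gave −0.28 ± 0.13 for VTA over NAc (adjusted p = 0.0648), and −0.14 without that library, in which it read 5.64 RPKM against 10.2 to 11.0 in the other 4. Without PFC library 4 the difference was −0.31 and was called (adjusted p = 0.0409). Its PFC differences did not pass (95% intervals −0.36 to 0.15 over NAc and −0.09 to 0.45 over VTA).

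The remaining coactivators differed less. Crtc2 was 1.14-fold lower in VTA (−0.19 ± 0.07, adjusted p = 0.0356) and 1.16-fold lower in PFC (−0.21 ± 0.07, adjusted p = 0.0242) than in NAc. Crtc3 was 1.19-fold lower in PFC than NAc (−0.25 ± 0.09, adjusted p = 0.0406). All 3 calls hung on single libraries, as 4 of 17 leave-one-out fits lost the first, 2 lost the second and 8 lost the third. The first was lost without NAc library 1 (adjusted p = 0.0556) or 2 (0.0845) or VTA library 2 (0.0598) or 3 (0.164), and the second without NAc library 2 (0.0623) or PFC library 6 (0.0622). The third was lost without NAc library 1 (0.103) or 2 (0.0840), VTA library 3 (0.0526) or 5 (0.0519), or PFC library 1 (0.0678), 3 (0.0568), 5 (0.0530) or 6 (0.0594).

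In count, 3 of the 8 genes were called for VTA against NAc, 4 for PFC against NAc and 4 for PFC against VTA. Of all 17181 genes tested, 62.5%, 40.7% and 57.8% were called in these contrasts. The share of the 8 was below that of all genes in both contrasts with the VTA, and above it for PFC against NAc. Whether these shares differ was not tested.

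The same contrasts in the saline libraries at 1 day kept Crtc1 lowest in the VTA (−1.67 ± 0.12 against NAc, and 1.46 ± 0.12 for PFC over VTA), Crem highest in the PFC (0.44 ± 0.12 over NAc and 0.68 ± 0.13 over VTA) and Crebbp lower in the VTA (−0.35 ± 0.09 against NAc, PFC over VTA 0.34 ± 0.09), all called. Creb1 was called lower in the VTA at 1 day, at −0.41 ± 0.10 against NAc, and PFC over VTA 0.55 ± 0.10 (adjusted p = 8.21e-05). For VTA over NAc, Atf1 (−0.33 ± 0.08, adjusted p = 0.000919), Crtc2 (−0.28 ± 0.09, adjusted p = 0.00900) and Ep300 (−0.16 ± 0.06, adjusted p = 0.0392) were also called at 1 day. The PFC to NAc differences of Crtc1 (−0.21 ± 0.12, adjusted p = 0.179), Crtc2 (−0.03 ± 0.09) and Crtc3 (−0.09 ± 0.11) were not called at 1 day. For PFC over VTA, Atf1 and Crtc2 were each −0.02 at 28 days and were 0.24 ± 0.08 and 0.26 ± 0.09, both called, at 1 day.

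**Figure D2:**
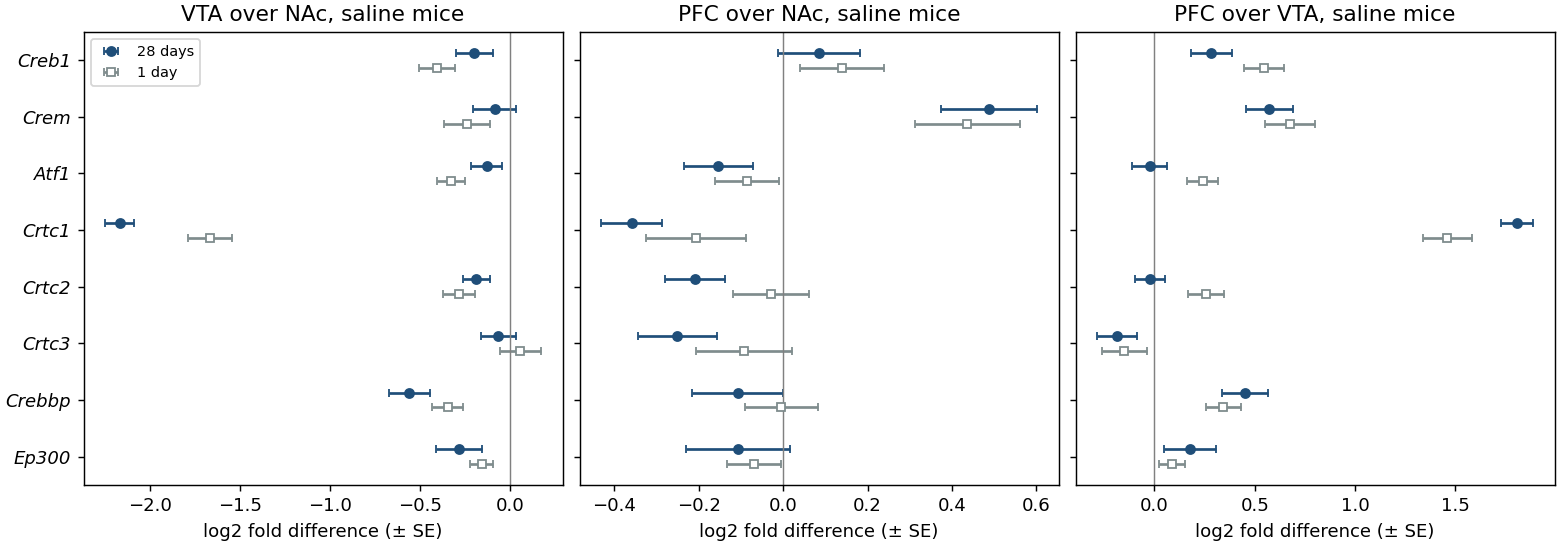
Log2 difference between regions in saline mice (horizontal axis, ± SE) for each gene (vertical axis), with 28 days filled (17 libraries) and 1 day open (18 libraries), each panel on its own range. Crtc1 stands alone, at −2.16 for VTA over NAc and 1.81 for PFC over VTA at 28 days, with the 1-day values on the same side.

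Levels at the 2 time points are set side by side here, with no test. Crtc1 in saline mice was 18.9 ± 3.6 RPKM in the NAc at 1 day and 36.9 ± 1.5 at 28 days, while the VTA went from 6.32 ± 0.73 to 8.88 ± 0.53 and the PFC from 16.1 ± 2.4 to 27.9 ± 3.6, ratios of 1.95, 1.41 and 1.73. Crtc3 was higher at 28 days too, by ratios of 1.52, 1.42 and 1.34 in the same order, and Creb1 was lower, with ratios of 0.715, 0.841 and 0.682. The time points were deposited as separate tables that differ in how far gene positions are padded, 250 bases at 1 day and 302 at 28 days, and time and table cannot be told apart. For the VTA and PFC the RPKM of 1 day were also scaled without TMM factors, unlike those of 28 days.

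Cocaine was then set against saline within each region and time point, first for the DNA-binding factors. Creb1 in the NAc at 1 day read 6.91, 8.03, 5.73, 8.26, 5.97 and 6.85 RPKM after saline and 7.63, 7.14, 7.67, 7.63, 5.95 and 8.30 after cocaine. The groups overlapped over nearly their whole range, and the log2 fold change was 0.09 (95% interval −0.13 to 0.30). In the other 5 tables the log2 fold change of Creb1 was 0.13 (VTA) and 0.10 (PFC) at 1 day, and 0.06 (NAc), −0.01 (VTA) and 0.11 (PFC) at 28 days, with each interval including 0. Crem had its highest values in the VTA at 1 day (0.23, −0.08 to 0.54) and the PFC at 28 days (0.17, −0.03 to 0.37). In that VTA table the Crem libraries ran from 2.05 to 3.84 RPKM after saline and from 2.74 to 4.03 after cocaine, again overlapping. Atf1 lay between −0.13 (VTA, 28 days) and 0.14 (PFC, 28 days).

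The CRTC coactivators held the largest cocaine value. Crtc1 in the VTA at 28 days read 8.65, 8.98, 9.14, 9.53 and 8.11 RPKM after saline and 10.7, 12.8, 12.0, 10.9, 10.7 and 11.3 after cocaine. All 6 cocaine libraries lay above all 5 saline libraries, which no other of the 8 genes showed in any table, and 1.27% of the 16937 genes tested in that table did not overlap between groups. The mean was 11.4 ± 0.83 against 8.88 ± 0.53, a log2 fold change of 0.36 ± 0.07 SE (95% interval 0.22 to 0.50) or 1.28-fold. The edgeR fit gave an adjusted p of 0.389, printed as part of the description. DESeq2 gave 0.37 with an adjusted p of 0.00774, in a fit that called 0.380% of genes. Leaving out each of the 11 libraries gave 0.33 to 0.40, with adjusted p from 0.103 to 0.738, and without saline library 1 the value was 0.36.

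Tissue markers varied among those libraries, with none called. Of 6 cortical excitatory neuron markers tested 2 were above saline, and their sum over 7 genes was 4.55 to 19.3 RPKM after cocaine and 4.90 to 82.3 after saline. Markers of midbrain dopamine neurons were above saline in 6 of 7, with sums of 624 to 1881 after cocaine and 437 to 2067 after saline. None of 5 oligodendrocyte markers was above saline (2283 to 4238 after cocaine and 3322 to 6650 after saline), none of 5 microglia markers (44.5 to 71.9 and 51.0 to 117) and none of 5 endothelial markers (54.1 to 89.2 and 59.0 to 152). Astrocyte markers were above saline in 1 of 5 (261 to 718 and 311 to 835). All these ranges overlapped, and the part of the markers in the Crtc1 value was not tested beyond a fit with the mean cortical marker level as a covariate, which gave 0.40 ± 0.09. In the VTA at 1 day, Crtc1 read 5.34 to 7.53 RPKM after saline and 5.59 to 8.19 after cocaine (log2 fold change 0.12, −0.10 to 0.34).

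**Figure D3:**
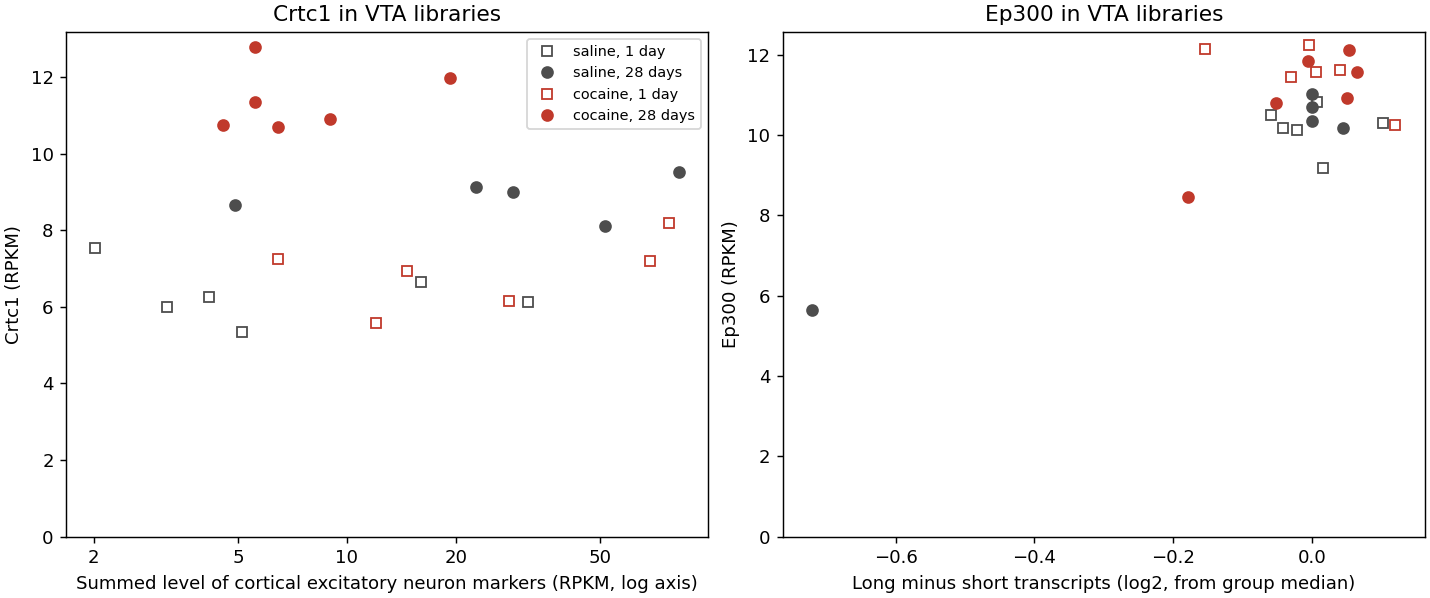
Left, Crtc1 (RPKM, vertical axis) against the summed level of cortical excitatory neuron markers (RPKM, log axis) in the 23 VTA libraries. Right, Ep300 (RPKM) against the level of long relative to short transcripts (log2, from the group median) in the same libraries. On the left the 6 cocaine libraries of 28 days lie at 10.7 to 12.8, above the other 17. Their marker sums are 4.55 to 19.3, against 4.90 to 82.3 in the saline libraries of 28 days. The libraries of 1 day differ from these in time, table and scaling of the RPKM as well. On the right 1 saline library of 28 days sits apart at −0.72 and 5.64.

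In the other regions the Crtc1 intervals include 0, and the log2 fold change was −0.04 (NAc) and −0.15 (PFC) at 1 day, and −0.09 (NAc, −0.18 to 0.01) and −0.05 (PFC) at 28 days. Without saline PFC library 4 the PFC value at 28 days was 0.03, and without saline NAc replicate 3 the NAc value at 1 day was 0.02. In the NAc at 28 days the cocaine libraries ran from 32.4 to 36.7 RPKM and the saline libraries from 34.7 to 38.7. Crtc2, the form best known from liver gluconeogenesis, went from −0.16 (VTA, 28 days, −0.32 to 0.01) to 0.19 (VTA, 1 day, −0.08 to 0.45), where 1 cocaine library at 12.7 RPKM stood above the other 5 at 7.50 to 9.13. Crtc3 ranged from −0.11 (PFC, 1 day) to 0.19 (VTA, 1 day).

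Both acetyltransferase genes had their clearest positive values in the VTA at 1 day. Ep300 read 9.19, 10.8, 10.1, 10.2, 10.3 and 10.5 RPKM after saline and 11.6, 11.4, 12.2, 11.6, 10.3 and 12.2 after cocaine. The groups overlapped only through 1 cocaine library (10.3), and the log2 fold change on the log2(RPKM + 0.1) scale was 0.18 (0.05 to 0.30). Crebbp gave 0.17 (0.01 to 0.33), from 4.46 to 5.58 RPKM after saline and 4.97 to 6.21 after cocaine. In the NAc at 1 day the values were 0.14 for Ep300 (−0.01 to 0.30) and 0.16 for Crebbp (−0.03 to 0.35). In the VTA at 28 days they were 0.19 and 0.10, but 0.06 and −0.01 without saline library 1. With the cortical marker covariate, which that table's saline libraries spread widely on, they were 0.61 and 0.50, so their size in that table depended on the fit.

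In the VTA at 1 day all 8 values were above 0, from 0.12 to 0.23 with a median of 0.17, against a median of 0.03 over the 15042 genes tested. Summed cell type markers also differed between the groups in the same libraries, with none of the markers called. Cortical markers summed to 6.47 to 77.5 RPKM after cocaine and 2.02 to 31.6 after saline, midbrain dopamine neuron markers to 423 to 1029 and 663 to 1691, and microglia markers to 48.0 to 70.8 and 72.3 to 99.3, the last without overlap. Choroid plexus markers were high in replicate 6 of both groups, at 150 and 60.9 RPKM. With the cortical markers as a covariate, the 8 values ran from −0.10 (Atf1) to 0.14 (Crebbp). In the other tables the medians of the 8 were 0.08 (NAc) and −0.01 (PFC) at 1 day, and 0.01 (NAc), 0.00 (VTA) and 0.00 (PFC) at 28 days.

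None of the 8 genes was called in any of the 6 edgeR or limma fits. Of all genes tested at 1 day, the fits called 0.0126% (NAc), 0.186% (VTA) and 0.00693% (PFC), while 636, 2323 and 598 had an unadjusted p under 0.05. At 28 days they called 0% in each region, where 1102, 1942 and 925 genes had such a p and DESeq2 called 18, 73 and 2 in the same order. At an unadjusted p under 0.05 stood 2 of the 8 in the VTA at 1 day (Ep300 and Crebbp), 1 in the VTA at 28 days (Crtc1) and 0 elsewhere. Since the choice of genes used this contrast, nothing is read from these counts. The 95% intervals show what the libraries could resolve. In the NAc at 28 days all 8 lay between −0.21 and 0.23.

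**Figure D4:**
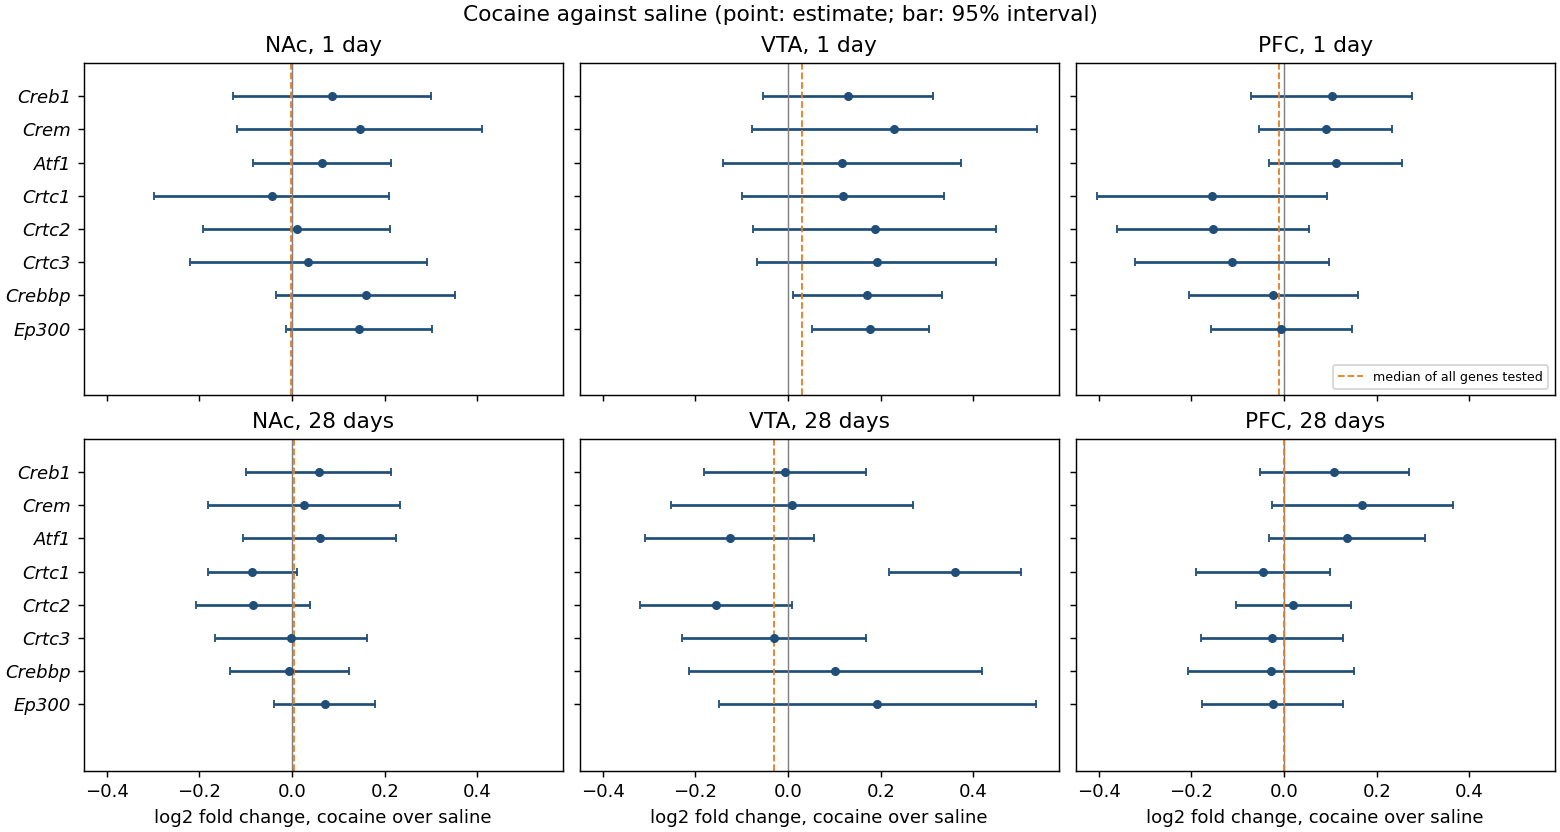
Log2 fold change of cocaine over saline (horizontal axis) for each gene (vertical axis) in the 6 tables, as estimate and 95% interval, with the median of all genes tested dashed. Crtc1 in the VTA at 28 days (0.36, 0.22 to 0.50) lies farthest from 0, and in the VTA at 1 day all 8 estimates lie right of 0.

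Whether the cocaine value changed between 1 and 28 days was fitted as an interaction in each region. For Crtc1 in the VTA the change was 0.28 ± 0.13 (28 days minus 1 day, 95% interval 0.02 to 0.54), and for Crtc2 in the VTA it was −0.33 ± 0.15 (−0.64 to −0.01). Leaving out 1 library gave 0.21 to 0.35 for Crtc1 and −0.37 to −0.19 for Crtc2, with 0 calls. At 1 day, cocaine VTA replicate 6 stood above its group in Crtc2 (12.7 RPKM, others 7.50 to 9.13). The other 6 genes in the VTA, and all 8 in the NAc and PFC, had intervals that include 0. None of the 8 was called in any region by edgeR or DESeq2, and of all genes edgeR called 0.0181% (NAc), 0% (VTA) and 0.00604% (PFC). In these fits 876, 2691 and 804 genes had an unadjusted p under 0.05 and DESeq2 called 12, 182 and 4. The choice of genes bears on this contrast too, so it is a description.

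The genes around CREB were taken as 6 lists, and 1 of their genes was called in a cocaine against saline fit. Camk2a, the calcium/calmodulin-dependent kinase subunit abundant in forebrain excitatory neurons, rose in the VTA at 1 day, from 26.5 ± 2.4 to 40.0 ± 5.1 RPKM (n = 6 each, 23.1 to 30.5 against 34.7 to 47.7, no overlap; log2 fold change 0.59 ± 0.09, adjusted p = 0.0328). The call held in 2 of 12 leave-one-out fits, was lost with the cortical marker covariate (0.59, adjusted p = 0.227), with no filter on low values (adjusted p = 0.0606) and with replicate number as a block (adjusted p = 0.0566). It was kept with a pseudocount of 1 (adjusted p = 0.0412) and with edgeR on reads recovered from the RPKM (adjusted p = 0.0351). Among the 12 CREB kinases, Camk4 came next in the VTA at 1 day (0.22, adjusted p = 0.198). Camk2a was also higher after cocaine in the VTA at 28 days, where it was not called. It was 32.4 ± 9.5 RPKM after saline (n = 5, 20.6 to 42.5) and 54.1 ± 14 after cocaine (n = 6, 40.5 to 79.2).

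Of 10 CRTC kinases and calcineurin subunits none was called in any table. Sik1, a CREB-induced kinase that returns CRTCs to the cytoplasm, gave 0.51 ± 0.21 in the VTA at 1 day (adjusted p = 0.279) and the calcineurin subunit gene Ppp3cc 0.10 (adjusted p = 0.410). Of 21 cAMP signalling genes none was called, with Adcy6, an adenylyl cyclase, at 0.38 (adjusted p = 0.223) and Pde1b, a phosphodiesterase, at 0.23 (adjusted p = 0.240). Of 14 other CREB and ATF family factors none was called, with Creb5 at −0.34 (adjusted p = 0.225) and Atf5 at 0.39 (adjusted p = 0.276). Of 13 other acetyltransferases and partners of CBP and p300 none was called. Cited2, which competes for a CBP domain, gave 0.58 (adjusted p = 0.151) and the TFIID subunit gene Taf4a 0.15 (adjusted p = 0.281).

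The 28 genes known as CREB targets differed between regions in saline mice at 28 days, and none was called for cocaine. In VTA against NAc 6 were called higher and 16 lower, 22 of 28 against 62.5% of all genes, with a median of −1.25 against 0.03. In PFC against VTA 15 were called higher and 4 lower, 19 of 28 against 57.8%, with a median of 0.92 against −0.02 (0.79 without PFC library 4). In PFC against NAc 5 were called higher and 5 lower, against 40.7%.

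The CREB targets were listed with earlier results of these data known, so their cocaine counts here and below are a description. After cocaine, 24 of the targets were tested in the VTA at 1 day, and 9 had an unadjusted p under 0.05, all higher, against 15.4% of all genes. That share counts both directions, and 1677 of its 2323 genes were higher. The median of the targets was 0.39 against 0.03 for all genes. Cortical markers were higher in the same libraries, as given above, and with them as a covariate the median was 0.14, with 0 targets higher and 1 lower at that p. Nr4a3, an orphan nuclear receptor, gave 0.96 ± 0.24 (adjusted p = 0.127), and Per2, a core clock repressor, 0.59 ± 0.18 (adjusted p = 0.177).

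In the NAc at 1 day 8 of 28 targets had an unadjusted p under 0.05, all higher, against 4.01% of all genes (median 0.13), and in the PFC 6 of 28, all higher, against 4.15% (median 0.12). The shares of all genes count both directions. Of all genes with such a p, 438 of 636 were higher in the NAc at 1 day and 237 of 598 in the PFC. At 28 days 5 were higher and 1 lower in the NAc, against 6.76% (median 0.13), and 2 higher and 3 lower in the PFC, against 5.66% (median 0.10). Without saline PFC library 4 the PFC count was 2 higher and 0 lower, against 4.59% (median 0.10). For the VTA at 28 days the count was 0 of 27 against 11.5% (median −0.07), and without saline library 1 it was 4, all higher, against 21.8% (median 0.04).

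Per2 was the listed gene called for a change of the cocaine value with time, in the NAc (−0.79 ± 0.14, adjusted p = 0.0381). It went from 6.98 ± 0.70 RPKM after saline to 9.91 ± 1.4 after cocaine at 1 day, and from 10.1 ± 1.4 to 8.23 ± 0.56 at 28 days. That call held in 6 of 24 leave-one-out fits, with adjusted p from 0.00179 to 0.109. It was kept with DESeq2 (adjusted p = 0.000282) and with no filter on low counts (adjusted p = 0.0342).

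Finally, the 8 genes were compared with each other over the 35 libraries of 28 days, each centred on its group. Crebbp and Ep300 followed each other most closely there (r = 0.93, and 0.71 over the 36 libraries of 1 day, where Creb1 and Crem were closest at 0.76). Without saline VTA library 1 it was 0.92. Of the 28 pairs, 8 had r over 0.3 and 2 under −0.3 at 28 days, and 12 and 9 at 1 day. The 2 under −0.3 at 28 days were Crem with Ep300 (−0.43) and Crem with Crebbp (−0.37). Without saline VTA library 1 these were −0.27 and −0.22. Leaving out that library also took Creb1 and Ep300 from 0.45 to 0.20, and Crtc2 and Ep300 from 0.21 to 0.32. Creb1 ran against Crtc1 (−0.65) and Crtc3 (−0.63) at 1 day, and at −0.11 and 0.03 at 28 days. Without saline VTA library 1 the 28-day value of Creb1 and Crtc3 was −0.06. Crtc1 correlated with Crtc2 and Crtc3 at 1 day (0.66 and 0.72) and less at 28 days (−0.01 and 0.23), while Creb1 and Crem were at −0.06 at 28 days. Creb1 and Crem were at 0.11 without saline VTA library 1, and Crtc1 and Crtc2 at 0.03 without saline PFC library 4. These are descriptions over libraries that share depth, dissection and RNA quality.

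Over 15751 genes, the gene most like each in the 28-day libraries was Zfp397 for Creb1 (r = 0.88), Dusp14 for Crem (0.73), Rfxank for Atf1 (0.63), Pde1b for Crtc1 (0.81), Znf512b for Crtc2 (0.73), Hdac7 for Crtc3 (0.71), Ep300 for Crebbp (0.93) and Ep400 for Ep300 (0.94). Over the 1-day libraries the same pairs gave 0.78, 0.41, 0.01, 0.26, 0.51, 0.63, 0.71 and 0.63. Each partner was chosen as the closest at 28 days, so a lower r at 1 day is built into the choice. Without saline PFC library 4 Crtc1 and Pde1b gave 0.59, and without saline VTA library 1 Ep300 and Ep400 gave 0.86.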

How the data were processed

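Total RNA of NAc, VTA and PFC punches was sequenced. According to the submitters' processing notes and methods, reads were aligned to mm9 with STAR 2.4.1d. The authors deposited raw counts per gene, without normalization, for 4 tables, and RPKM, scaled by gene length and library reads, for the VTA and PFC at 1 day. The tables also hold the authors' fold changes and p-values of cocaine against saline, which were not used, and 30 columns of per-library values that belong to no sample here, which were not used either. Columns at 28 days name the group, with numbers that match no sample title.

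Counts were fitted with edgeR 4.0.16 in R 4.3.3 (filterByExpr with a minimum count of 10 and total of 15, TMM, quasi-likelihood tests), and RPKM, as log2(RPKM + 0.1), with limma 3.58.1 where a gene's mean reached 0.5 RPKM. p-values were adjusted over all genes by Benjamini-Hochberg and called under 0.05. All RPKM steps were whole reads within 0.001 (100% of 23806 and 23353 genes with reads), so reads and gene lengths were recovered for the interaction and 1-day region fits, for edgeR as an alternative, which called 55 genes in the VTA at 1 day against 28 by limma, and 1 in the PFC, and to express counts as RPKM. SE and intervals of edgeR came from its F statistic. DESeq2 1.42.0, other size factors, no filter, a pseudocount of 1, a replicate block and leaving out each library were tried, and the cortical marker covariate at 28 days was added after seeing the data. Fits were tested on simulated data. No 2 libraries were identical. Named list genes are those called in a cocaine fit, plus the 2 of smallest p per list in the VTA at 1 day. The genes and lists were chosen with earlier results of these data known. At 1 day, same-numbered cocaine and saline libraries correlated over 0.1 in their deviations in 3 of 6 pairs in the NAc, 3 in the VTA and 0 in the PFC, so numbers were not taken to pair samples.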

Additional observations from a re-analysis of the deposited data

Results flagged for a closer look

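In 96 groups of 5 or 6 libraries (8 genes in 12 groups), 7 values lay far from the rest of their group by Dixon's criterion at the 95% level; chance gives about 1 in 20 groups. In the VTA at 28 days, saline library 1 was low in Crebbp (3.69 RPKM, others 5.64 to 6.26) and Ep300 (5.64, others 10.2 to 11.0), and cocaine library 1 was low in Ep300 (8.45, others 10.8 to 12.1). These 2 libraries also had the lowest level of long relative to short transcripts in their groups, −0.72 and −0.18 on the log2 scale.

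Crtc1 was high in saline PFC library 4 at 28 days (34.9 RPKM, others 25.4 to 28.2), the library with 1338 RPKM of striatal markers. It was low in cocaine PFC replicate 5 at 1 day (10.7, others 14.6 to 15.6). Crtc2 was high in cocaine VTA replicate 6 at 1 day (12.7, others 7.50 to 9.13), which also had 150 RPKM of choroid plexus markers, and in cocaine PFC library 5 at 28 days (9.59, others 7.90 to 8.43). The part of these markers and of transcript length in the values was not tested.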

How the results depend on the processing

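The log2 fold changes of the 8 genes for cocaine against saline moved by less than the SD between replicates on leaving out a library, Ep300 (0.19, and 0.06 without saline library 1) and Crebbp (0.10, and −0.01) in the VTA at 28 days included. Under the other settings 180 values moved by less than that SD and 4 by more. These 4 came with the cortical marker covariate: Atf1 in the VTA at 1 day (−0.10), and Crtc3 (0.17), Crebbp (0.50) and Ep300 (0.61) in the VTA at 28 days. DESeq2 called 1 of the 8, Crtc1 in the VTA at 28 days. It called 20 genes in the NAc at 1 day, and 18, 73 and 2 in NAc, VTA and PFC at 28 days, and for the change with time 12, 182 and 4. In the VTA at 1 day 28 genes were called, but 2 with no filter, 55 with edgeR on recovered reads, 13 with the replicate block and 0 with the covariate. The causes were not tested.

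Leaving out 1 library gave 0 to 2 called genes in the NAc at 1 day, the PFC at 1 day and the NAc at 28 days, 0 in the other 28-day tables, and 0 (without cocaine replicate 3) to 54 (without cocaine replicate 6) in the VTA at 1 day. For the change with time it gave 1 to 5 (NAc), 0 to 13 (VTA, highest without saline library 2 of 28 days) and 1 (PFC). For regions it gave 2 to 5 of the 8 genes called for VTA against NAc and for PFC against NAc, where 3 and 4 were called with all libraries.

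With the saline libraries of 1 day, 6 of the 8 were called for VTA against NAc and 1 for PFC against NAc; with replicate number as a block there, 5 and 1. Values that changed sign were near 0 at 28 days. Crtc3 for VTA over NAc was −0.065, and 0.058 at 1 day (0.065 with the block). For PFC over VTA, Atf1 was 0.24 at 1 day (0.24 with the block) and −0.075 to 0.00269 on leaving out a library, and Crtc2 was 0.26 (0.25 with the block) and −0.086 to 0.00917. Without the filter, Crtc2 for VTA against NAc and Crtc3 for PFC against NAc were no longer called. The numbers did not pair the samples: 2, 2 and 0 of 6 libraries in NAc, VTA and PFC were most like the one with their own number. Columns at 28 days carry numbers that match no sample title, so no paired analysis was possible there. Correlations without the 2 libraries that stood apart were added after seeing the data.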
